A study of Mus musculus with 27 samples.

Results

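Tetraspanins are small membrane proteins that cross the membrane 4 times, and the mouse genes that encode them were followed here through a study of the transcription factor Nkx2.2. Members were taken by name: every gene called Tspan followed by a number, together with Cd9, Cd37, Cd53, Cd63, Cd81, Cd82 and Cd151. This gave 27 genes in each of the study's count tables, which list 26487 genes for islets, 55536 for embryonic pancreas and 39017 for neural progenitors. The rule used names and no measured value, but the family was chosen with earlier results of these data known. RNA-seq covered 24 libraries. Whole pancreas at E15.5 came from 3 controls, labelled as wildtype in the design, and 4 Nkx2.2 SDmut mutants, whose Nkx2.2 carries mutations in the SD domain, a stretch of the protein conserved among NK2 factors. Islets at 8 weeks came from 2 controls and 3 betaSDmut animals, which carry the SD mutation in beta cells. Islets at 4 weeks came from 2 controls and 2 betaKO samples, a knockout of Nkx2.2 in beta cells. The labels do not say which Cre line made the beta-cell alleles or whether the controls carried it. For the 4-week libraries the labels give genomic DNA as the molecule, while the tables give them RNA counts per gene. Motor neuron progenitors were derived from mouse embryonic stem cells and collected at day 4. The pMN group of 3 is the iNkx2.2 line left untreated, the iNkx2.2 group of 3 is that line given doxycycline for about 16 h at 1 µg/ml to induce FLAG-tagged Nkx2.2, and the iSDmut group of 2 is a separate line given doxycycline to induce the SD-mutant form. In iSDmut against pMN, the line, the drug and the induced protein therefore cannot be told apart. By the sample names, libraries 1 and 2 of pMN and of iNkx2.2 and library 1 of iSDmut are of sequencing lane 2. Library 3 of pMN and of iNkx2.2 is of lane 4, and library 2 of iSDmut alone is of lane 3. Binding sites of Nkx2.2 came from ChIP-seq with 2 replicates in MIN6, a tumour line of mouse beta cells. Nothing in the labels says whether an islet library came from 1 animal or a pool, so p-values measure the spread between these libraries.

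As background, tetraspanins organise the cell surface by binding each other and a set of partner proteins, among them integrins, immunoglobulin-superfamily proteins and the protease ADAM10, into microdomains. Cd9, Cd63 and Cd81 are widely used as markers of exosomes, and Cd63 also marks late endosomes and secretory granules. Tspan5, Tspan10, Tspan14, Tspan15, Tspan17 and Tspan33 form the TspanC8 subgroup, which carries ADAM10 out of the endoplasmic reticulum and steers its cleavage of substrates. Cd37, Cd53 and Tspan32 belong to blood cells. Tspan7 is abundant in neurons and islets and is a target of autoantibodies in type 1 diabetes.

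Total counts per library ranged from 38447596 to 41840638 for embryonic pancreas, from 12398041 to 32385406 for islets and from 17757991 to 46840701 for progenitors. Levels of single genes are given as CPM, read counts divided by library size after scaling with edgeR's TMM factors. Tests are edgeR quasi-likelihood tests with Benjamini-Hochberg adjustment over all genes tested, and "called" means an adjusted p under 0.05. In progenitors Nkx2-2 stood at 9.25 ± 3.36 CPM (SD, n = 3) in pMN, 355 ± 20.1 (n = 3) in iNkx2.2 and 246 ± 2.40 (n = 2) in iSDmut. In 4-week islets it stood at 89.4 ± 18.6 CPM (n = 2) in controls and 78.7 ± 20.0 (n = 2) in betaKO (edgeR adjusted p = 0.779), so the gene's counts do not separate the library labelled betaKO from its control. The labels do not say which exons the betaKO allele removes, and other cell types of the islet keep the gene. Several libraries stood apart in other cell types' transcripts. A list of 12 leukocyte markers, of which 11 are in the tables, summed to 226.5 CPM in betaSDmut library 3 and 157.8 CPM in 4-week control 1, against 27.23 to 87 CPM in the other islet libraries. A list of 9 skeletal muscle markers was high in embryonic control 3 and SDmut 2. A list of 14 acinar markers, none at 0, summed to 5966 and 11090 CPM in 4-week controls and to 14390 and 40980 CPM in betaKO. At 8 weeks the same list summed to 8109 and 13370 CPM in controls and to 1089, 2095 and 10830 CPM in betaSDmut. The 10 beta-cell markers were high in all islet libraries, but their sums were lower in every mutant library than in its controls, at 199700 to 220400 CPM against 237900 and 243300 CPM at 8 weeks and at 167500 and 179800 CPM against 211700 and 216300 CPM at 4 weeks.

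The family's levels differed widely within a tissue. In islets, on the authors' FPKM scale (fragments scaled to transcript length and to library size), the highest members over 9 libraries were Tspan7 with a mean of 266 FPKM (246 to 281), Tspan13 with 214 (171 to 261), Cd63 with 206 (171 to 262), Tspan3 with 170 (124 to 195) and Cd81 with 98.6 (81.7 to 125). The ranges of Tspan13 and Cd63 coincide almost entirely, so their order is not resolved. Tspan31, Tspan5, Tspan8, Cd82 and Cd151 followed, with means from 61.2 down to 27.7 FPKM. In progenitors the order over 8 libraries was Tspan3 (132 FPKM, 119 to 148), Cd63 (99.8, 65.4 to 151), Cd81 (95.7, 76.5 to 108), Cd9 (67.6, 25.6 to 107) and Tspan13 (59.8, 53.2 to 66.1). Within this range Cd9 stood at 72.4 to 107 FPKM in the induced libraries against 25.6 to 34.0 in pMN. Embryonic pancreas has no such table here, and its CPM were divided by exon length. The highest members over 7 libraries were Cd81 (92.5 CPM per kb, 81.1 to 104), Cd63 (53.8, 48.9 to 62.6), Tspan31 (37.0, 32.3 to 42.0), Tspan13 (34.6, 24.3 to 49.8) and Tspan3 (28.1, 24.4 to 32.2). Cd63, Cd81, Tspan3 and Tspan13 were thus among the highest members in all 3 settings.

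**Figure D1:**
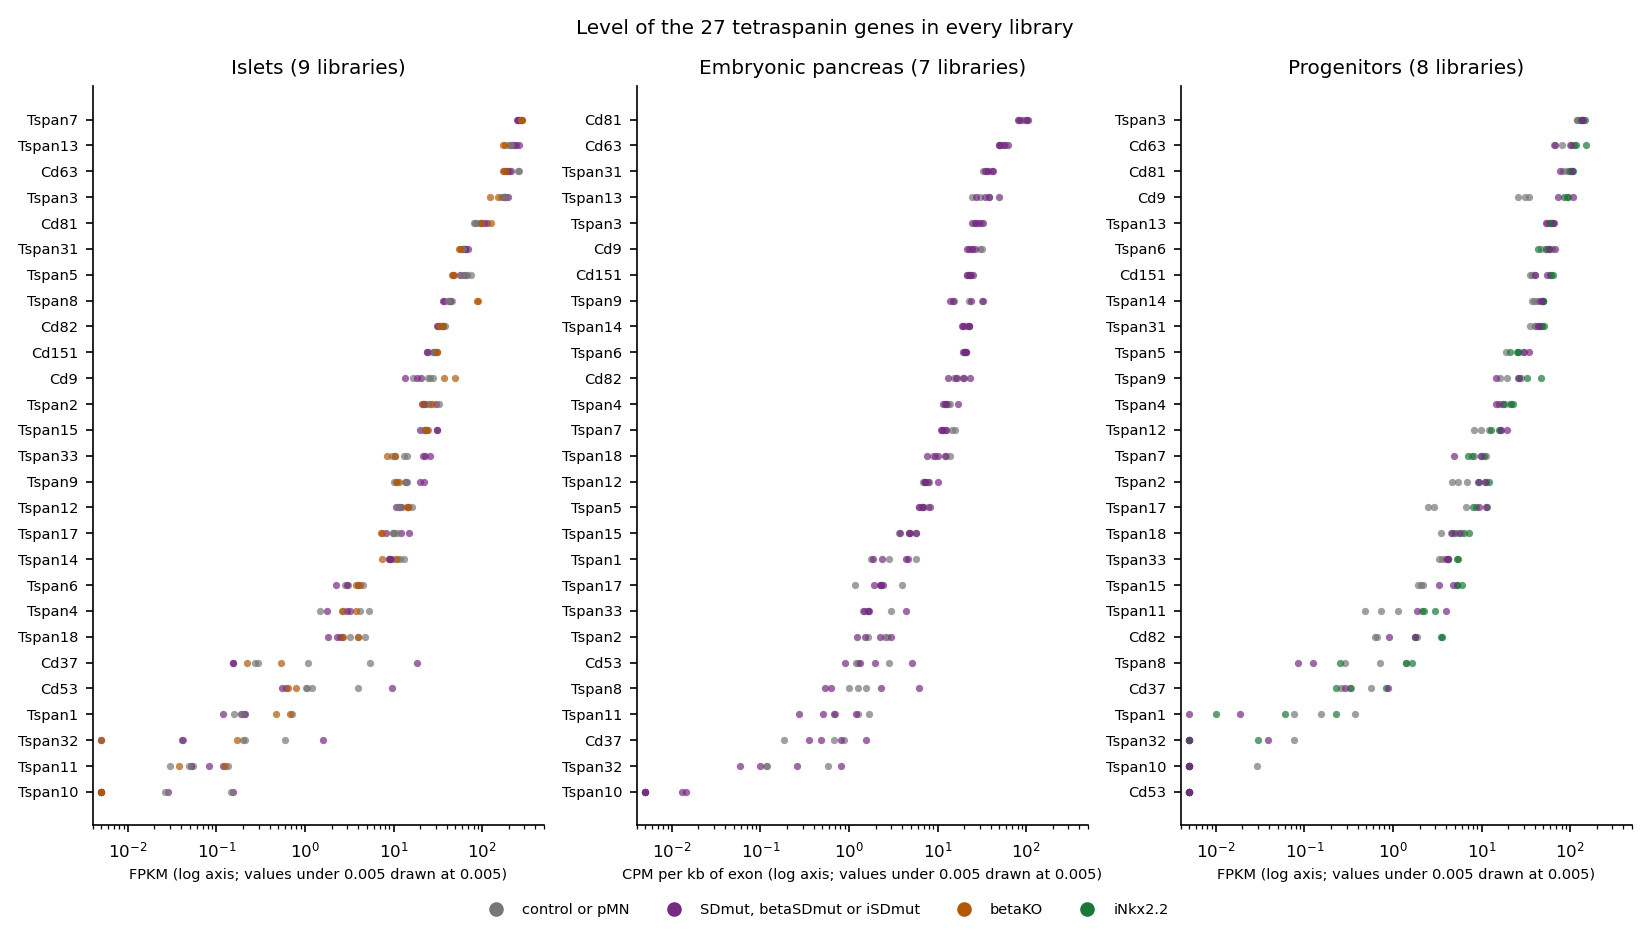
Level of each of the 27 tetraspanin genes in every library, ordered by mean within islets, embryonic pancreas and progenitors (points are libraries, colours are groups, and the x axis is logarithmic in FPKM or in CPM per kb of exon). Tspan7 is the highest member in islets, with a mean of 266 FPKM, and is ranked 14 in progenitors, with 8.74 FPKM.

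Some members marked a setting. Tspan7 ranked 1 of 27 in islets, 13 in embryonic pancreas and 14 in progenitors, where it averaged 8.74 FPKM (4.95 to 11.2). Tspan8, a tetraspanin of epithelial surfaces and exosomes, ranked 8 in islets with 51.9 FPKM (36.2 to 89.2), 23 in embryonic pancreas and 22 in progenitors with 0.736 FPKM (0.0849 to 1.62). Tspan6 went the other way, with 3.49 FPKM (2.22 to 4.48) in islets and 55.4 (43.5 to 68.2) in progenitors. Cd82, known as a suppressor of metastasis, stood at 34.6 FPKM in islets and 1.83 in progenitors. The islet and progenitor tables were normalized separately by the authors, so these levels are set side by side without a test. The embryonic ranks use another length, that of all annotated exons of a gene, which is 7067 bp for Tspan7. An embryonic rank therefore cannot be set against an FPKM rank, and the lower embryonic rank of Tspan7 may come from this length. At the low end, Tspan10 had 14 counts over all 9 islet libraries, 2 over the 7 embryonic libraries and 1 over the 8 progenitor libraries. Cd53 had 0 counts in all 8 progenitor libraries, where the sum of the leukocyte list was at most 4.777 CPM. A count of 0 allows up to 0.064 CPM in iNkx2.2 library 1 and up to 0.169 CPM in pMN library 2, counting error only. The 4 tetraspanins with other names, which the rule leaves out, were low in islets and progenitors: Rom1, a photoreceptor protein with wider expression, averaged 9.97 FPKM in islets and 2.73 in progenitors, the bladder proteins Upk1a and Upk1b stayed under 1 FPKM in both, and Prph2, the partner of Rom1 in photoreceptors, had 0 counts in islets.

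In 8-week islets Tspan33 rose with the beta-cell SD mutation. Tspan33 (chr6:29694222-29718559, plus strand, GRCm38) is a TspanC8 member known from erythroid progenitors. Control libraries held 15.1 and 14.3 CPM and betaSDmut libraries 32.3, 37.2 and 31.5 CPM. Every betaSDmut library lay above both controls. The fold change was 2.28 (log2 1.19, SE 0.0990, adjusted p = 0.00412). Of the 27 members, 22 passed the filter on low counts and 1 was called, higher, which is 4.55% against 7.94% of all 15413 genes tested (4.07% called higher). DESeq2 called 3 members, against 9.73% of genes with a count. Tspan9, known from platelets, came next with 33.4 and 31.2 CPM in controls and 42.7, 58.8 and 64.4 CPM in betaSDmut. Its groups did not overlap, but at log2 0.77 (SE 0.186) the adjusted p was 0.0651. Cd81 held 85.8 and 80.7 CPM in controls and 98.3, 111 and 97.5 CPM in betaSDmut, a small and separate shift of log2 0.29 (SE 0.0793, adjusted p = 0.0842). These were the members just outside the threshold. Markers of other cell types also differed between these libraries. The 4 delta-cell markers, of which Rbp4 was called, summed to 3089 and 2083 CPM in controls and to 4953, 6524 and 5089 CPM in betaSDmut, and the 8 mesenchyme markers to 219 and 281.6 CPM and to 176.7, 164 and 116.7 CPM. Of the 10 beta-cell markers, 3 were called lower, Nkx6-1, Slc2a2 and Slc30a8. No marker of these 3 lists was at 0, and their part in the members' values was not tested. Tspan33 was not called once either control library was left out, with adjusted p = 0.0644 without control 1 and 0.0749 without control 2, while its log2 fold change ran from 1.12 to 1.28 over all alternatives. The authors' deposited table of this comparison calls Tspan33 alone among 22 listed members (log2 1.18, p = 4.71e-05). Among 19 listed members, the authors' deposited table of 3 islet groups calls Tspan33 (log2 0.98), Tspan9 (0.62), Cd81 (0.31) and Tspan13 (0.25) higher in betaSDmut. That table names the same control group for betaSDmut and betaKO, so its values do not rest on age-matched controls as the tests here do. The share of all its genes called was not computed here.

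In 4-week islets Tspan8 and Cd9 rose in betaKO. Tspan8 (chr10:115816832-115849893, plus strand) held 39.0 and 38.9 CPM in controls and 99.3 and 89.3 CPM in betaKO, a fold change of 2.42 (log2 1.28, SE 0.0955, adjusted p = 0.0205). The gap between groups was many times the spread within either. Cd9 (chr6:125460266-125494791, minus strand), the exosome marker also needed for fusion of sperm and egg, held 20.4 and 18.7 CPM in controls and 33.1 and 40.4 CPM in betaKO. Its fold change was 1.87 (log2 0.91, SE 0.138, adjusted p = 0.0486), close to the threshold. Of 24 members tested, 2 were called, both higher, which is 8.33% against 1.56% of all 14942 genes tested (0.81% called higher). DESeq2 called 4 members, against 3.92% of genes with a count. Tspan12, a co-receptor in Norrin signalling through Frizzled, was just outside with 19.2 and 18.5 CPM in controls and 28.3 and 28.1 CPM in betaKO (log2 0.58, SE 0.107, adjusted p = 0.0746). Cd81 was higher in both betaKO libraries, with 101 and 120 CPM against 85.9 and 73.4 (log2 0.47, adjusted p = 0.175). Cd63 was lower, with 290 and 265 CPM against 340 and 362 (log2 -0.34, adjusted p = 0.174). The authors' deposited table of 3 islet groups calls Tspan8 (log2 1.17), Cd9 (1.04) and Cd81 (0.46) higher in betaKO. Its control group is the one it also uses for betaSDmut, and the share of all its genes called was not computed.

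Tspan8 moved in the same libraries as transcripts of other pancreatic cell types. The 6 alpha-cell markers summed to 30380 and 26020 CPM in 4-week controls and to 64380 and 52480 CPM in betaKO, and the 2 PP-cell markers to 3481 and 3559 CPM and to 10860 and 8339 CPM. The 4 delta-cell markers summed to 3440 and 1893 CPM in controls and to 6436 and 5143 CPM in betaKO, and the 8 mesenchyme markers to 241.2 and 235 CPM and to 360.9 and 451.3 CPM. Of the 10 beta-cell markers, Ucn3 was called lower. The 9 duct markers summed to 384.1 and 323.6 CPM in controls and to 420.4 and 387.2 CPM in betaKO. The 8 endothelial markers were lower, at 576.1 and 665.8 CPM and at 402.8 and 503.8 CPM. No marker of these lists or of the acinar list was at 0 in these libraries. The leukocyte list, with some markers at 0, was also lower, at 157.8 and 80.59 CPM in controls and 27.23 and 64.48 CPM in betaKO. The part of all these lists in the Tspan8 and Cd9 values was not tested. Without betaKO library 1, which had the highest acinar sum, Tspan8 stayed called at log2 1.2 (adjusted p = 0.0102) and Cd9 at log2 1.04 (adjusted p = 0.0264). Without 4-week control 1 or control 2, each of which leaves 1 control library, neither was called. Over all alternatives the log2 fold change ran from 1.19 to 1.35 for Tspan8 and from 0.76 to 1.04 for Cd9. With all libraries kept, Cd9 was not called by edgeR with RLE factors (adjusted p = 0.0514) or total library size (0.11). It was also not called with a replicate block (0.0743) or in the model of all islet groups (0.0974). Tspan8 stayed called in each of these fits. Without betaKO library 2 Cd9 was not called (adjusted p = 0.106). In bulk tissue, fewer cells of a type and less RNA per cell cannot be told apart.

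**Figure D2:**
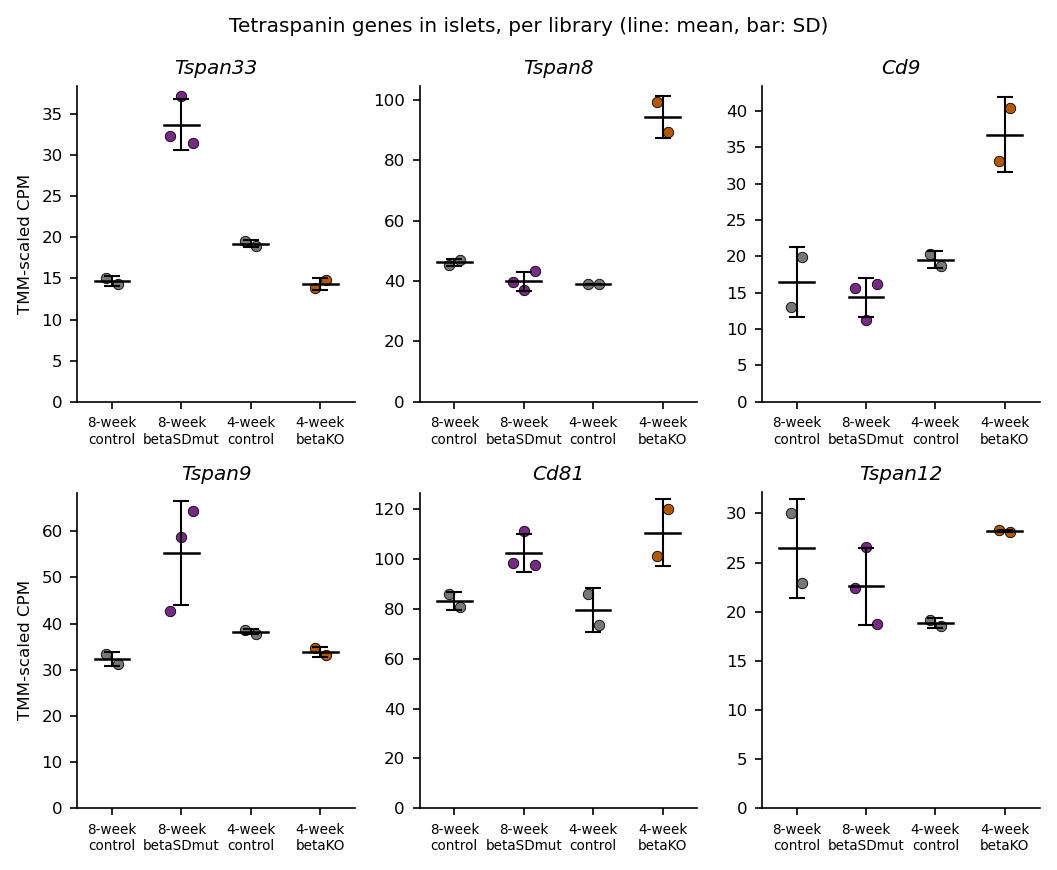
TMM-scaled CPM of 6 tetraspanin genes in the 4 islet groups (points are libraries, horizontal lines means, bars SD). Tspan33 is high in the 3 betaSDmut libraries, at 31.5 to 37.2 CPM, and Tspan8 in the 2 betaKO libraries, at 89.3 and 99.3 CPM.

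Tspan33 and Tspan8 separated the islet effects when the effects themselves were compared. Tspan33 at 4 weeks held 19.5 and 18.9 CPM in controls and 13.8 and 14.8 CPM in betaKO, which is lower in both but not called (log2 -0.43, SE 0.124, adjusted p = 0.195). Tspan8 at 8 weeks held 45.4 and 47.0 CPM in controls and 39.6, 37.0 and 43.2 CPM in betaSDmut (log2 -0.21, SE 0.0928, adjusted p = 0.216). Subtracting the betaKO effect from the betaSDmut effect in a model of all 9 islet libraries gave log2 1.63 for Tspan33 (SE 0.149, adjusted p = 0.00594) and -1.49 for Tspan8 (SE 0.127, adjusted p = 0.00594). They were the 2 members called of 25 tested, 8.00%, against 1.21% of all 15995 genes tested, and DESeq2 called 4 members, against 3.12% of genes with a count. Both genes had been picked out for this contrast with earlier results of these data known, so its p-values are not independent evidence. Over all 16 alternatives the log2 difference ran from 1.55 to 1.79 for Tspan33 and from -1.56 to -1.32 for Tspan8. Without 8-week control 2, which leaves 1 control library of that age, neither was called, and in the other 15 alternatives both were. Left out together, the libraries with the most leukocyte transcripts did not change this (log2 1.64 and -1.56). The alleles were examined at different ages, so age and allele cannot be told apart in this difference. Cd9 differed by log2 -1.10 (SE 0.315, adjusted p = 0.168), Tspan9 by 0.95 (SE 0.231, adjusted p = 0.109) and Tspan12 by -0.81 (SE 0.239, adjusted p = 0.178).

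**Figure D3:**
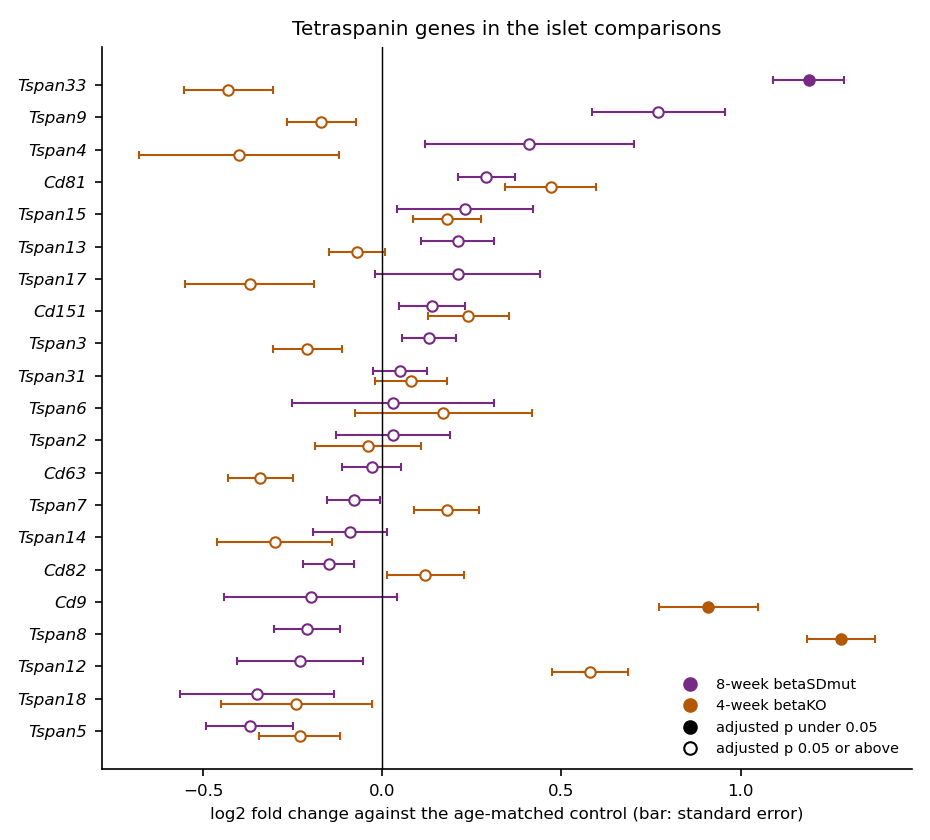
Log2 fold change against the age-matched control of 21 members tested at both ages, with standard errors (filled points have an adjusted p under 0.05, and Cd53 is left out because 1 library carries its counts). Tspan33 is at 1.19 in betaSDmut and -0.43 in betaKO, and Tspan8 at -0.21 and 1.28.

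Over the 22 members tested at both ages, 9 had the same sign in the betaSDmut and betaKO effects, which do not share controls. Median log2 fold changes of the members were 0.04 at 8 weeks and -0.06 at 4 weeks, near the medians of all genes tested (0.01 and 0.00). Among the TspanC8 members tested, Tspan33 was the 1 called of 5 at 8 weeks. Tspan15 held 55.3, 83.4 and 81.6 CPM in betaSDmut against 64.0 and 61.0 CPM in controls (adjusted p = 0.497), and Tspan5 held 121, 142 and 152 CPM against 190 and 167 CPM (log2 -0.37, adjusted p = 0.120). Adam10 itself was not called, with 62.0 ± 0.145 CPM (n = 2) in 8-week controls and 64.6 ± 2.70 (n = 3) in betaSDmut (log2 0.05, SE 0.0667, adjusted p = 0.661). Of the exosome markers, 1 of 3 was called, Cd9 at 4 weeks. Tspan7, the highest member, held 326 and 343 CPM in 8-week controls and 317, 324 and 314 CPM in betaSDmut, and 323 and 327 CPM in 4-week controls and 388 and 349 CPM in betaKO. Neither difference was called (adjusted p = 0.550 and 0.424).

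The blood-cell tetraspanins followed single libraries. Cd37 held 15.8 CPM and Cd53 19.7 CPM in betaSDmut library 3, against at most 0.207 and 1.37 CPM in the other betaSDmut libraries and at most 0.334 and 2.43 CPM in 8-week controls. Tspan32 held 1.85 CPM in that library and at most 0.143 CPM in the other 8-week libraries. At 4 weeks, control 1 held 4.64 CPM of Cd37 and 7.37 CPM of Cd53, the highest of that age. These are the 2 islet libraries with the highest sums of the leukocyte list, and none of the 3 genes was called in any comparison. In islets Tspan33 did not follow this pattern: without betaSDmut library 3 its log2 fold change was 1.24 (adjusted p = 0.00640).

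In the embryonic pancreas no member was called in SDmut. Of 27 members 26 were tested, Tspan10 being too low, and 0 were called by edgeR or DESeq2, against 0.00534% of 18723 genes tested by edgeR and 0.0897% of genes with a count by DESeq2. At an unadjusted p under 0.05 there were 2 members, against 2.54% of all genes. Tspan7 held 112, 103 and 87.8 CPM in controls and 88.5, 77.7, 81.6 and 78.5 CPM in SDmut (log2 -0.30, SE 0.1, unadjusted p = 0.0173, adjusted p = 1.00). Cd9 held 65.7, 49.7 and 62.3 CPM in controls and 54.2, 46.1, 49.8 and 43.8 CPM in SDmut (log2 -0.29, SE 0.123, unadjusted p = 0.0482, adjusted p = 1.00). For both, groups overlapped. The 10 beta-cell markers summed to 489.5 to 1110 CPM in controls and to 212 to 344.5 CPM in SDmut, and their part in the Tspan7 values was not tested. Tspan8 held 1.70, 2.15 and 2.65 CPM in controls and 3.92, 10.5, 0.907 and 1.06 CPM in SDmut, and the groups overlapped (log2 0.92, SE 0.847). Tspan33 stood at 10.5 ± 4.36 CPM (SD, n = 3) in controls and at 22.9, 8.69, 7.69 and 8.57 CPM in SDmut (log2 0.19, SE 0.459). SDmut library 1 carried the highest Tspan33, Cd37 (5.50 CPM), Cd53 (8.93 CPM) and Tspan32 (5.11 CPM) of the 7 libraries. It also had the highest sums of the erythroid list (4680 CPM, against 932.2 to 2353) and the leukocyte list (394.1 CPM, against 102.9 to 211.8), whose part was not tested. Tspan9 was highest in the 2 libraries with muscle transcripts, 158 CPM in control 3 and 163 CPM in SDmut 2, against 68.4 to 117 CPM in the others.

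In progenitors a set of members rose when Nkx2.2 was induced. Of 24 tested, 5 were called in iNkx2.2 against pMN, all higher, which is 20.8% against 9.49% of all 15653 genes tested (4.71% called higher). DESeq2 called 8 members, against 8.69% of genes with a count. Cd9 held 36.8, 31.4 and 38.4 CPM in pMN and 98.4, 101 and 91.5 CPM in iNkx2.2, a fold change of 2.73 (log2 1.45, SE 0.138, adjusted p = 0.000441). Tspan11 (chr6:127887589-127953977, plus strand) held 2.45, 1.64 and 3.01 CPM in pMN and 10.5, 9.22 and 11.9 CPM in iNkx2.2. At a fold change of 4.41 (log2 2.14, SE 0.239, adjusted p = 0.00117) it had the highest fold change of the called members. The TspanC8 member Tspan15 (chr10:62185396-62231251, minus strand) held 8.91, 11 and 10.4 CPM in pMN and 23.5, 23.7 and 26.7 CPM in iNkx2.2, a fold change of 2.43 (log2 1.28, SE 0.160, adjusted p = 0.00187). In all 3 genes the groups lay far apart. Tspan2, known from oligodendrocytes and their precursors, held 24.0, 23.6 and 28.4 CPM against 42.9, 38.0 and 45.5 CPM (log2 0.73, SE 0.124, adjusted p = 0.00848). Cd151, a partner of laminin-binding integrins, held 79.0, 85.7 and 87.8 CPM against 122, 127 and 132 CPM (log2 0.60, SE 0.113, adjusted p = 0.0133). The authors' deposited table of progenitors calls the same 5 members, which are the 5 it lists. Without pMN library 1, 3 members were called, and Tspan2 (adjusted p = 0.05) and Cd151 (0.0697) were not.

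Same-numbered pMN and iNkx2.2 libraries deviated together from their group means, and a fit with the replicate number as a block called 13 of 24 members, 12 higher and 1 lower, against 29.6% of all genes. Besides the 5 above, it called Cd82, Tspan9, Tspan12, Tspan14, Tspan17, Tspan18 and Tspan31 higher and Tspan6 lower. Tspan17, also of TspanC8, stood at 6.47 ± 2.65 CPM (SD, n = 3) in pMN and 12.5 ± 3.24 (n = 3) in iNkx2.2. Values ranged from 4.73 to 9.52 CPM in pMN and the groups overlapped, but each induced library exceeded its own-numbered control (blocked log2 0.98, adjusted p = 0.00228, and 0.0884 without the block). Cd82 held 1.22, 1.27 and 2.62 CPM against 4.23, 2.95 and 5.24 CPM (blocked log2 1.33, adjusted p = 0.0152, and 0.0861 without the block). Tspan6 was lower in each pair, with 98.3, 122 and 86.0 CPM in pMN and 88.2, 103 and 78.9 CPM in iNkx2.2 (blocked log2 -0.18, adjusted p = 0.0380). Summed over the 27 members, CPM ran from 1233.7 to 1280.6 in pMN, from 1452.0 to 1627.5 in iNkx2.2 and from 1368.3 to 1521.2 in iSDmut.

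Members also rose in cells given the SD-mutant form. In iSDmut against pMN 4 of 24 members were called, all higher, 16.7% against 3.54% of all genes tested (1.9% called higher). DESeq2 called 7 members, against 5.3% of genes with a count. Cd9 held 81.8 and 114 CPM in iSDmut (log2 1.46, SE 0.149, adjusted p = 0.00166), Tspan11 10.4 and 11.3 CPM (log2 2.18, SE 0.257, adjusted p = 0.00296), Tspan15 15.8 and 22.2 CPM (log2 0.91, SE 0.175, adjusted p = 0.0257) and Tspan2 35.8 and 41.7 CPM (log2 0.61, SE 0.137, adjusted p = 0.0442). Every iSDmut library lay above all pMN libraries for these 4 genes. The last 2 calls were often lost when 1 library was left out. Tspan2 was not called after leaving out any of 7 of the 8 progenitor libraries in turn, all but pMN 3. Tspan15 was not called without pMN 1, pMN 2, pMN 3, iNkx2.2 1 or iSDmut 2. Where both iSDmut libraries remained, these adjusted p-values were 0.0528 to 0.13 for Tspan2 and 0.0524 to 0.0946 for Tspan15. Over all alternatives the log2 fold change ran from 0.49 to 0.72 for Tspan2 and from 0.65 to 1.13 for Tspan15. The comparison shares its pMN libraries with the one before, so the calls of the 2 comparisons are not independent. Just outside were Tspan17 (20.1 and 12.7 CPM, log2 1.34, SE 0.343, adjusted p = 0.0660) and Tspan12 (41.8 and 48.7 CPM against 25.9, 34.3 and 20.4 CPM in pMN, log2 0.76, SE 0.200, adjusted p = 0.0737). Cd151, at 88.5 and 117 CPM, was not called (log2 0.29, adjusted p = 0.233).

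Between the induced groups no member was called by edgeR, 0 of 24 against 0.281% of all genes. At an unadjusted p under 0.05 there were 7 members, against 12.5% of all genes, and DESeq2 called 1, Tspan8, against 1.95% of genes with a count. For Cd9 and Tspan11 the log2 differences of iSDmut against iNkx2.2 were 0.01 (SE 0.149) and 0.04 (SE 0.245). Tspan15 was at -0.37 (SE 0.175, adjusted p = 0.423) and Cd151 at -0.31 (SE 0.126, adjusted p = 0.359), both lower in each iSDmut library than in every iNkx2.2 library. Cd82 held 0.952 and 2.12 CPM in iSDmut, below the 2.95 to 5.24 CPM of iNkx2.2 (log2 -1.41, SE 0.471, adjusted p = 0.254). Tspan8 had 3 and 4 counts in the iSDmut libraries, against 95, 9 and 69 counts in iNkx2.2 and 21, 9 and 51 in pMN (unadjusted p = 0.00587, adjusted p = 0.201 against iNkx2.2). Tspan33 moved in none of the progenitor comparisons past the threshold, with 9.41, 10.4 and 10.5 CPM in pMN, 10.8, 13.4 and 13.2 CPM in iNkx2.2 and 10.8 and 11.1 CPM in iSDmut. The 6 motor neuron progenitor markers, Olig2 and Pax6 among them, summed to 774.5 to 911.9 CPM in pMN. Their sums were 316.6 to 439.3 CPM in iNkx2.2 and 338.6 to 492 CPM in iSDmut. Single markers differed between the induced groups. Against pMN, Pax6 was called lower in iNkx2.2 (log2 -5.54) and in iSDmut (log2 -2.77). Pax6 was called higher in iSDmut than in iNkx2.2 (log2 2.77, edgeR adjusted p = 0.0304). Olig2 was called lower in iNkx2.2 (log2 -5.35) but was not called in iSDmut against pMN. The part of these markers in the members' values was not tested.

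**Figure D4:**
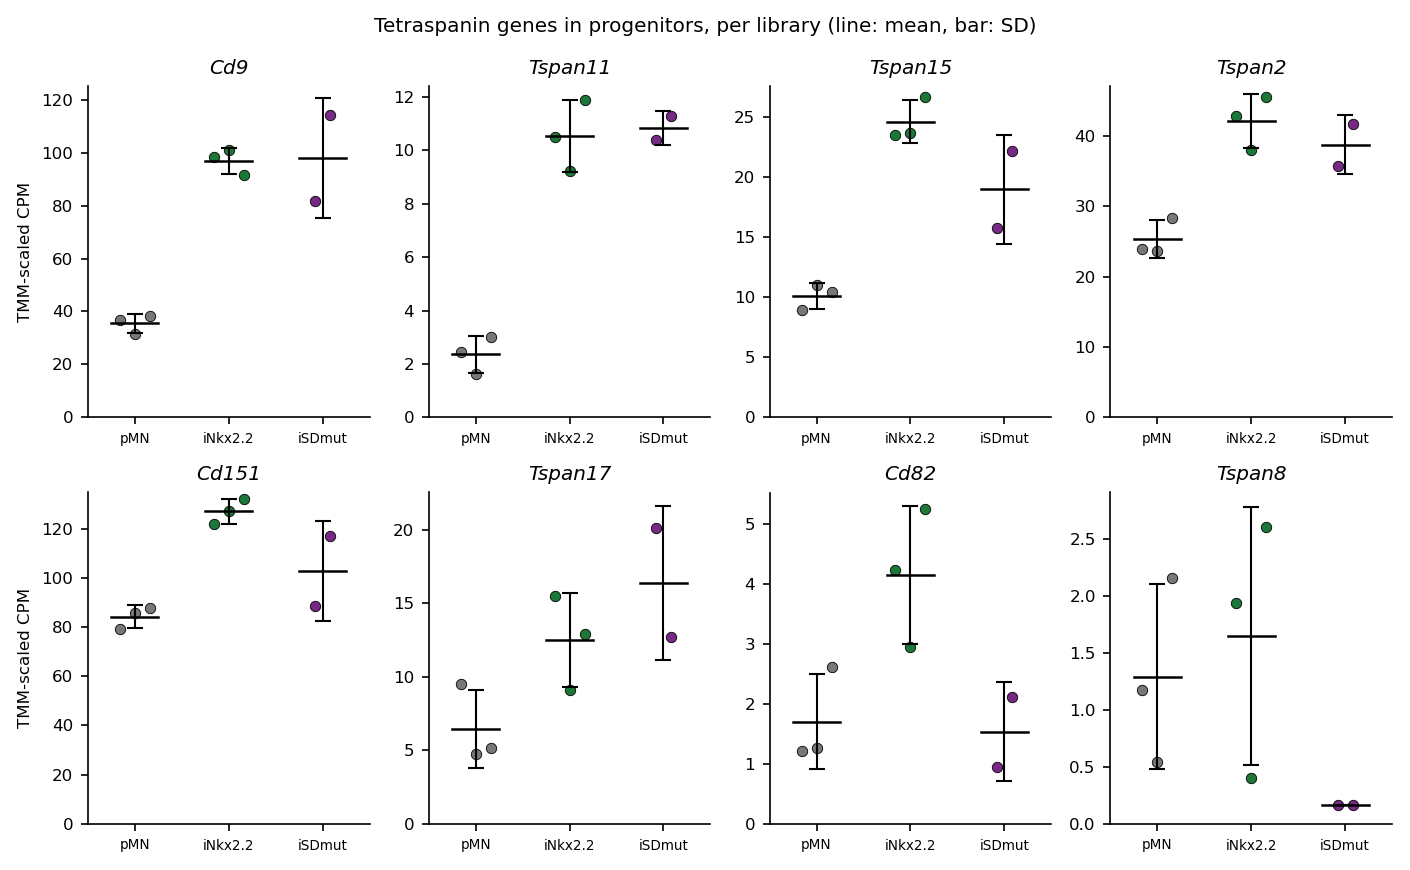
TMM-scaled CPM of 8 tetraspanin genes in the progenitor groups (points are libraries, horizontal lines means, bars SD). Cd9, Tspan11, Tspan15 and Tspan2 are higher in every iNkx2.2 and iSDmut library than in any pMN library, and Tspan8 is at 0.166 and 0.168 CPM in iSDmut.

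Genes that act with tetraspanins were followed from lists of partners, whose counts stand beside 7.94% of all genes called at 8 weeks and 9.49% in iNkx2.2 against pMN. Of 7 integrin subunits that bind tetraspanins, all tested, 1 was called at 8 weeks, Itga6, a laminin-receptor subunit, which fell from 29.6 ± 0.958 CPM (n = 2) to 20.6 ± 1.66 (n = 3) in betaSDmut (log2 -0.53, adjusted p = 0.0250). Of 17 other partners, 16 were tested at 8 weeks, with 1 called higher, Cdh1 (E-cadherin, log2 0.43, adjusted p = 0.0287), and 1 lower, Egfr, the epidermal growth factor receptor, at 21.0 ± 0.689 CPM and 5.99 ± 1.45 CPM (log2 -1.81, SE 0.208, adjusted p = 0.00853). Of 11 genes of exosome formation, 2 were called at 8 weeks, both higher. Rab27b, which docks vesicles at the membrane, stood at 4.56 ± 0.568 CPM in controls and 12.2 ± 0.871 CPM in betaSDmut (log2 1.42, SE 0.141, adjusted p = 0.00608). Sdcbp, which encodes syntenin, a binding partner of Cd63, stood at 172 ± 11.5 and 301 ± 21.9 CPM (log2 0.81, SE 0.0945, adjusted p = 0.00882). Median log2 fold changes at 8 weeks were -0.14 for the integrins, 0.02 for the other partners and 0.06 for exosome formation, beside 0.01 over all genes. At 4 weeks, where 1.56% of all genes were called, and in the embryonic pancreas none of these lists had a called gene by edgeR. Without a call, Rab27b stood at 2.91 ± 0.534 CPM in 4-week controls and 6.29 ± 0.603 in betaKO (n = 2 each). Sdcbp stood at 160 ± 8.95 and 202 ± 19.1 CPM there, Egfr at 18.9 ± 0.849 and 14.2 ± 3.19, and Cdh1 at 253 ± 10.4 and 265 ± 14.1. Itga6, lower at 8 weeks, was not lower at 4 weeks (39.1 ± 4.80 and 42.5 ± 1.07 CPM). In iNkx2.2 against pMN, 1 of 17 partners (F11r, log2 0.79, adjusted p = 0.0383) and 1 of 10 exosome genes tested (Flot1, log2 0.61, adjusted p = 0.0309) were called higher. Upk3a, a uroplakin partner of Upk1b, went from 0.705 ± 0.393 CPM in pMN to 19.1 ± 6.89 in iNkx2.2 (log2 4.82, adjusted p = 0.0146) and 40.2 ± 47.4 CPM in iSDmut (log2 5.90, adjusted p = 0.0147). Upk1b itself stayed at or under 0.166 CPM in all 8 progenitor libraries.

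Nkx2.2 binding in MIN6 cells was examined at the same genes. The authors called 10749 events and kept 6473 final sites. A final site lay within the gene body of 4 of 27 members (Tspan1, Tspan3, Tspan7 and Tspan15), 14.8% against 10.1% of 21951 protein-coding genes, with median gene lengths of 30.2 kb and 17.4 kb. Within 100000 bp of the gene there was a final site at 11 members, 40.7% against 46.0%. The most heavily read site of the family lay upstream of Tspan7, at -27703 bp from its start (chrX:10457455), with 359 and 299 reads in 500 bp and rank 195 of 6473 final sites by the authors' mean log2 CPM. Tspan7 is the member with the highest level in islets, had 8 events within 100000 bp, 5 of them final, and was called in no expression comparison. The authors' deposited table of 3 islet groups lists 19 members. Of these, 4 are in their table of joined sites and genes (Tspan3, Tspan5, Tspan7 and Tspan15). That is 21.1%, against 26.0% of the 9971 genes of the table of 3 islet groups. The members that were called in islets, Tspan33, Tspan8 and Cd9, and the progenitor genes Tspan11, Tspan2 and Cd151, had no event in the gene or within 100000 bp in this cell line.

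Windows of 101 bp around the Tspan7, Tspan15 and Tspan5 sites and of 30 bp at the Tspan3 site, which lies in an exon 12 bp from a transcript start, are shown because they are the sites the authors joined to a member (GRCm38, plus strand, 5′ to 3′). Capitals mark AAGTG, the known core of NK2 factors, GAGTG, which differs from it in the first letter, and GGCAAC, letters found in the X-box bound by RFX factors. The motifs were searched on both strands, do not overlap one another here, and were chosen after the sites had been examined.
Tspan7, chrX:10457405-10457505: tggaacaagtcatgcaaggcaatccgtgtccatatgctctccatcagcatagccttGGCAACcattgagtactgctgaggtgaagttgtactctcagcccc
Tspan15, chr10:62216785-62216885: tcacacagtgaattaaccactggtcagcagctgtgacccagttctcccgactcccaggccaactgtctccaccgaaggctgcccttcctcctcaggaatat
Tspan5, chr3:138686913-138687013: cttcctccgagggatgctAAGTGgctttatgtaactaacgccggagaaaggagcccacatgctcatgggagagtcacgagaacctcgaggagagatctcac
Tspan3, chr9:56161031-56161060: ggccccctaggccgttcccaGGCAACtaag
The Tspan7 and Tspan3 windows each hold 1 GGCAAC, the Tspan5 window 1 AAGTG and the Tspan15 window none of the 3. Over all final sites GGCAAC was in 19.0% of windows against 3.08% of windows 10000 bp downstream, GAGTG in 40.8% against 18.5% and AAGTG in 22.7% against 21.9%. The Tspan15 site, with 72 and 44 reads, lies in an intron of a gene that rose in both progenitor comparisons. The site was measured in another cell type.

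**Figure D5:**
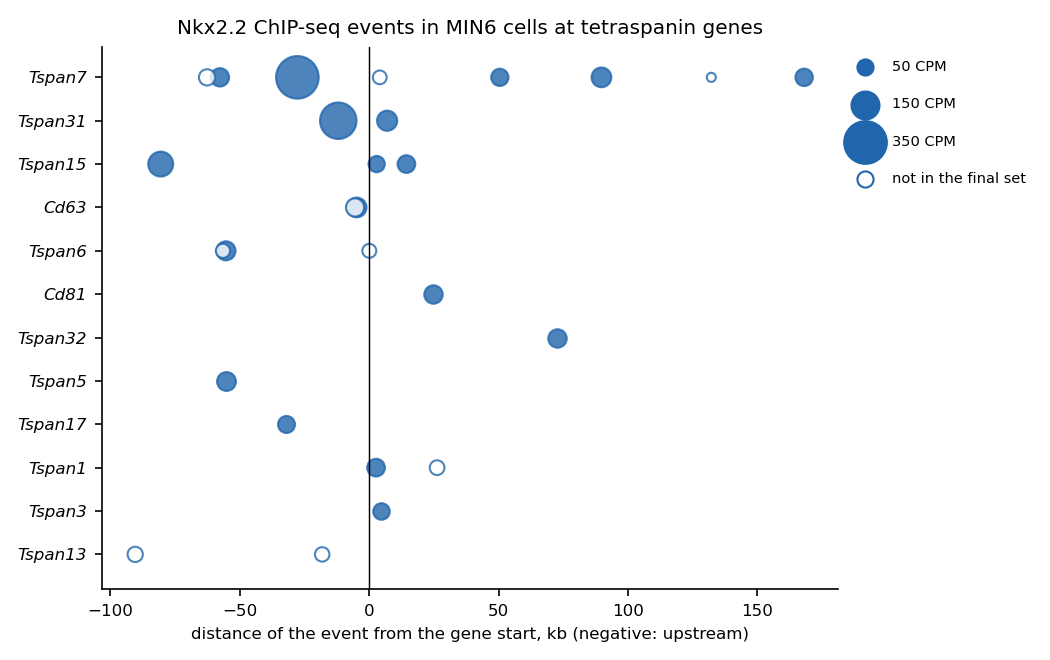
Nkx2.2 ChIP-seq events in MIN6 cells within 100000 bp of a member, by distance from the gene start in kb (the area of a circle is its mean CPM over all events, and open circles were not kept by the authors). The largest circle is the site at -27703 bp from the start of Tspan7, and no event is drawn for Tspan8, Tspan33, Cd9 or Tspan11 because none was called there.

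The 250 bp upstream of a RefSeq start (GRCm38.p6) are shown for the pair that separated the islet effects, Tspan33 and Tspan8, and for the pair with the largest called rises in both progenitor comparisons, Cd9 and Tspan11, each in the direction of transcription and with AAGTG and GAGTG of either strand in capitals.
Tspan33, chr6:29693964-29694213, plus strand: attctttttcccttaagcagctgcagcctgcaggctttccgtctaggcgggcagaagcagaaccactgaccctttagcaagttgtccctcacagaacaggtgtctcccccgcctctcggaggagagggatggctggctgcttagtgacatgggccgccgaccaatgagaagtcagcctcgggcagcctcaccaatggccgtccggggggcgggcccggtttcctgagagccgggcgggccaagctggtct
Tspan8, chr10:115817034-115817283, plus strand: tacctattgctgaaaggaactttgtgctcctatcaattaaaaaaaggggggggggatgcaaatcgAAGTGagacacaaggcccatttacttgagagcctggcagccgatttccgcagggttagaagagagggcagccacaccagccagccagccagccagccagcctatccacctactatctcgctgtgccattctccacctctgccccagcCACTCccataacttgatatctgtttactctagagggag
Cd9, chr6:125494761-125495010, minus strand: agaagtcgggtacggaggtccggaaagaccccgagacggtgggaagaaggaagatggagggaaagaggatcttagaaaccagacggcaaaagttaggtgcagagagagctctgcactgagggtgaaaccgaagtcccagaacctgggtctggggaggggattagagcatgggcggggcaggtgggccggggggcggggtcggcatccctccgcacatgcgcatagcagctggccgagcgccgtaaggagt
Tspan11, chr6:127887372-127887621, plus strand: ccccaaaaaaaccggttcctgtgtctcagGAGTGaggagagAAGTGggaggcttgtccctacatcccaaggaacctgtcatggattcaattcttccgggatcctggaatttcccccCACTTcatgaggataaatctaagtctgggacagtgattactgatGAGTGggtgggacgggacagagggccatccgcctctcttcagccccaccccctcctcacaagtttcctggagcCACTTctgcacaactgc
The Tspan33 and Cd9 windows hold neither motif, the Tspan8 window 1 of each, and the Tspan11 window 3 AAGTG and 2 GAGTG. Over 32851 RefSeq promoters, 40.7% hold AAGTG and 40.9% GAGTG in the same 250 bp, and over the 36 starts of the 26 members matched, 19.4% and 33.3%. The gene intervals given earlier come from another annotation, with other starts. By those intervals the Tspan8 window lies inside its gene, and the Cd9 and Tspan11 windows overlap theirs in part. A match is a string of letters in a window, not a bound site.

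There are 4 pairs of members within 100000 bp of each other. Tspan18 and Cd82, 84.6 kb apart on chromosome 2, were both called higher in iNkx2.2 with the replicate block (adjusted p = 0.00458 and 0.0152) and neither was called without it. Of Tspan32 and Cd81, 33.1 kb apart on chromosome 7, the first was too low to test in progenitors and the second was not called. Tspan11 and Tspan9 are 7.4 kb apart on chromosome 6, on opposite strands and facing each other. Tspan11 rose in both progenitor comparisons, and Tspan9 held 56.4, 47.3 and 76.2 CPM in pMN, 86.1, 72.2 and 125 CPM in iNkx2.2 (log2 0.65, adjusted p = 0.116, and 0.0214 with the block) and 48.3 and 67.4 CPM in iSDmut (log2 -0.05, adjusted p = 0.937). In islets, where Tspan9 had its largest difference, Tspan11 was too low to test. Cd151 and Tspan4, the migrasome protein, are 3.8 kb apart on chromosome 7 and on the same strand. Cd151 rose in iNkx2.2, and Tspan4 held 22.7, 26.6 and 19.9 CPM in pMN and 18.1, 22.7 and 25.3 CPM in iNkx2.2 (log2 -0.07, adjusted p = 0.846). Whether reads in these pairs were counted by strand is not given in the sources used here.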

How the data were processed

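RNA-seq was analysed in 24 libraries and Nkx2.2 ChIP-seq in 2 MIN6 replicates. The members and gene lists were chosen with earlier results of these data known. The authors deposited read counts per gene, FPKM for islets and progenitors, and counts in 500 bp at ChIP events with log2 CPM at final sites. Their tables also hold log2 fold changes, a p-value and a call score of 1, 0 or -1, from edgeR and limma, or DESeq2 for embryonic pancreas, per the deposited description. Per the submitters' processing notes the build was mm10 and the tools were STAR, Cufflinks, bedtools 2.17.0, edgeR 3.20.9, limma 3.34.9 and DESeq2, and the counting tool and its use of strand are not given in the sources used here. Here counts were scaled by TMM, filtered with filterByExpr and tested with edgeR 4.0.16 (R 4.3.3, robust quasi-likelihood F-test, Benjamini-Hochberg over all genes tested, threshold 0.05). The SE of a log2 fold change is its size divided by the square root of F. DESeq2 1.42.0, other scaling, other count filters, a replicate block, a model of all islet groups and each left-out library were the alternatives, and the code was tested on simulated counts. Each age of islet was fitted with its own controls, and progenitors in 1 model of 3 groups. Same-numbered pMN and iNkx2.2 libraries had deviations correlated at 0.674, 0.697 and 0.715, so their numbers pair them. Named genes are Nkx2-2, called members, those with an adjusted p under 0.1, Tspan8 and Tspan33, the highest 5 members of each setting, the subgroups, called genes of the lists and 4 tetraspanins with other names. Genes named beyond this were chosen after their values were seen. Depth limits low members: 3 counts equal 0.064 to 0.242 CPM. Intervals of this kind cover counting error only. The input ChIP library was not used here.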

Additional observations from a re-analysis of the deposited data

Results flagged for a closer look

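Tspan33 in the 4 embryonic SDmut libraries had 1 value far from the others, 22.9 CPM in library 1 against 7.69 to 8.69 CPM. Chance alone sets a value apart in this way in about 1 of 20 groups. That library also had the highest erythroid (4680 CPM) and leukocyte (394.1 CPM) marker sums of the embryonic pancreas.

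The islet effects differed between betaSDmut at 8 weeks and betaKO at 4 weeks for 2 members, by edgeR's test of the difference itself with Benjamini-Hochberg adjustment. For Tspan33 the difference was log2 1.63 (SE 0.149, adjusted p = 0.00594), with every betaSDmut library above its controls and both betaKO libraries below theirs. For Tspan8 it was log2 -1.49 (SE 0.127, adjusted p = 0.00594), with both betaKO libraries above their controls and every betaSDmut library below its controls. Both genes had been picked out for this contrast with earlier results known, so these p-values are not independent evidence. Allele and age cannot be told apart.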

How the results depend on the processing

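No called member changed direction under any alternative run, and the counts of called members moved as follows. In 8-week islets 1 member was called, with 3 by DESeq2, 2 with an acinar covariate and 2 in the model of 4 islet groups, and 0 to 4 when 1 library was left out. Without betaSDmut library 1 the count was 4 of 22, Tspan9 (adjusted p = 0.00268) and Cd81 (0.0406) among them, where 2765 of all 15304 genes were called. Without control 1 or 2, 45 and 37 of all genes were called. In 4-week islets 2 were called, with 4 by DESeq2, 1 with RLE factors, 1 with total library size and 1 in the model of 4 islet groups, and 0 to 2 with 1 library left out. For the difference of the islet effects 2 were called, with 4 by DESeq2 and 0 to 3 with 1 library left out. In iNkx2.2 against pMN 5 were called, with 8 by DESeq2, 6 within lane 2 and 3 to 6 with 1 library left out. In iSDmut against pMN 4 were called, with 7 by DESeq2, 6 without a count filter (Tspan17 at 0.0448 and Tspan12 at 0.0192 besides the 4) and 2 to 3 with 1 library left out. Cd9 and Tspan11 were called in all 14 alternatives there, Tspan15 in 9 and Tspan2 in 7. In iSDmut against iNkx2.2 0 were called, and 1 by DESeq2. In the embryonic pancreas the count was 0 under every alternative run. The calls over all genes moved too. At 8 weeks the acinar covariate gave 1593 of 15413 genes and the model of 4 islet groups 1384 of 15995. At 4 weeks RLE factors gave 201 and total library size 127 of 14942 genes, and the model of 4 islet groups 428 of 15995. Lane 2 gave 960 of 14903 genes in iNkx2.2 against pMN, and no count filter 681 of 25473 in iSDmut against pMN. The cause of the moves in called members was not tested.

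With the replicate number as a block, the count was 13 in iNkx2.2 against pMN. In the other groups the pairing by number was less clear. Same-numbered libraries gave correlations of 0.414 and 0.0643 for pMN and iSDmut and 0.388 and 0.151 for iNkx2.2 and iSDmut. In each case the higher value was that of replicate 1, whose libraries share lane 2. In islets the correlations were -0.0416 and -0.0354 at 8 weeks and 0.0204 at 4 weeks. The block gave 11 called members in iSDmut against pMN (16.8% of all genes) and 2 in iSDmut against iNkx2.2 (3.37% of all genes, Tspan5 and Tspan8). In islets it gave 1 at 8 weeks (4.91% of all genes) and 1 at 4 weeks (1.76% of all genes), where Cd9 had an adjusted p of 0.0743. For the difference of the islet effects it gave 2 (0.544% of all genes). In the embryonic pancreas the block was instead the number in the sample names, which controls and SDmut share in part and whose meaning the labels do not give, and 0 members were called with it. Where 1 library was left with its group, it was assumed to vary like the other libraries of the fit.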

Other observations

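Tetraspanins outside the naming rule gave values without a called change. Rom1 was higher in every iNkx2.2 library than in pMN, at 6.21, 5.68 and 8.19 CPM against 4.56, 4.25 and 4.61 CPM (edgeR log2 0.58, SE 0.211, adjusted p = 0.122), and stood at 4.31 and 4.99 CPM in iSDmut. In the embryonic pancreas the uroplakin tetraspanins were present in all 7 libraries, Upk1a at 5.35 to 14.1 CPM and Upk1b at 6.67 to 17.7 CPM. Upk1b was highest in SDmut library 1, at 17.7 CPM, and neither gene was called (edgeR adjusted p = 1.00 for each).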
